A study of Mus musculus with 14 samples.

Results

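Oligodendrocytes are the cells that wrap axons of the brain in myelin, and the 31 genes described here mark the steps by which they form. They were chosen by symbol, out of 55421 mouse genes counted, as markers of oligodendrocyte precursors (Pdgfra, Cspg4, Vcan), of differentiating cells (Gpr17, Enpp6, Bcas1), of the transcription regulators of the lineage (Sox10, Olig1, Olig2, Nkx6-2, Myrf) and of myelin and the mature cell (20 genes, 12 of them of the myelin sheath). The rule that picks them names symbols and uses no measured value, though the list was drawn up with earlier results of these data known. Brainstem RNA of 7 mice was sequenced in 14 libraries. All mice carried Cre under the tyrosine hydroxylase (Th) promoter and the ribosomal protein Rpl10a tagged with eGFP under Slc6a2, the gene of the noradrenaline transporter, on a C57Bl/6 background. At 2 to 3 months of age they received, in the locus coeruleus (the main noradrenergic nucleus of the brain), either P364S mutant human tau (animals B, C, L and M) or EYFP, a fluorescent protein (animals H, I and K). From each animal the total brainstem homogenate (pre-IP) and the immunoprecipitate of the tagged ribosomes (IP) were sequenced, which gave 3 EYFP pre-IP, 4 tau pre-IP, 3 EYFP IP and 4 tau IP libraries. The tag is driven in noradrenergic cells, so oligodendrocytes are not the cells the IP was made to pull down.

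In the adult brain, precursors carry the growth factor receptor encoded by Pdgfra and the proteoglycan encoded by Cspg4, and go on dividing. Cells that leave this state pass through a short stage marked by Gpr17, Enpp6 and Bcas1. Sox10 and the Olig factors act throughout the lineage, and Myrf switches on the myelin genes in cells that mature. The mature cell makes the proteins that compact the sheath (Mbp), join its layers (Cldn11) and face the axon (Mag), together with the enzymes of its lipids (Ugt8a, Fa2h).

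Some libraries departed from their labels or stood apart. Totals ran from 41843489 to 65664551 counts. The EYFP IP libraries were made from 0.7 to 2.8 ng/µl RNA and the tau IP libraries from 0.1 to 0.8 ng/µl. The part of this difference in the tau against EYFP results was not tested. The EYFP IP library of animal I had an RNA integrity number of 4.2, against 7.7 to 9 in the other libraries. Animal K, labelled EYFP, held 408 counts of the tau construct in pre-IP and 398 in IP, against 2 to 18 in the other EYFP libraries and 3527 to 47177 in the tau libraries. Animal M, labelled female, held 674 counts of Y-linked genes in pre-IP and 1153 in IP. Of 12 markers of noradrenergic neurons (Hand2 was at 0 in every library), the median log2 ratio of IP over pre-IP was 0.61, 0.60 and 0.61 in EYFP animals H, I and K and 4.38, 3.38, 3.16 and 1.66 in tau animals B, C, L and M. The markers of the tagged cells were thus enriched far less in the EYFP IP libraries than in the tau IP libraries.

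Promoter stretches of 3 genes are shown because the genes are followed below: Mobp, which was lower in the IP, Ermn, which was higher, and Mog, a marker whose change did not pass the test. Each runs from 250 to 51 bases before the RefSeq start (GRCm38.p6), 5′ to 3′ on the gene's strand, and lies at chr9:120149492-120149691 on the plus strand for Mobp, at chr2:58052915-58053114 on the minus strand for Ermn and at chr17:37023449-37023648 on the minus strand for Mog. Capitals mark the letters ACAAAG or ACAATG, cores of the sequence that SOX proteins such as Sox10 bind, on either strand.
Mobp: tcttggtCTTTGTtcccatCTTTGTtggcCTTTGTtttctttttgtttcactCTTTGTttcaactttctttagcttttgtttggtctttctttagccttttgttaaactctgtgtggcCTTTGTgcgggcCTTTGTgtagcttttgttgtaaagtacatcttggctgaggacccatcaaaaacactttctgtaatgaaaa
Ermn: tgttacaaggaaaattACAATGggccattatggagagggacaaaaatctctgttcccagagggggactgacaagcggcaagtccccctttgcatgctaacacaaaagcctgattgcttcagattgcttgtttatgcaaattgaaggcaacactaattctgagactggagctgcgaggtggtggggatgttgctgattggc
Mog: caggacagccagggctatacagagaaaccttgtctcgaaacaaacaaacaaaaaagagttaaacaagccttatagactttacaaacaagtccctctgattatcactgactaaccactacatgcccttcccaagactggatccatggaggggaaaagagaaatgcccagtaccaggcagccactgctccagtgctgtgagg
The Mobp stretch held 6 matches, the Ermn stretch 1 and the Mog stretch 0. Of the members, 22 were matched in the RefSeq table, and 8 of them (36.4%) held a match in this window, against 21.5% of 27025 genes. The letters CAGCTG (an E-box) were searched as well, and 2 of the 22 (9.09%) held them, against 10.1% of genes. A match is a description of letters and shows no binding.

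A second set of sequences is shown because base composition moved with the IP result. These are the first 90 coding bases of the regulators Sox10 and Myrf, which were lower in the IP, and of the myelin gene Ermn, which was higher, from GENCODE M21 transcripts, with G and C in capitals.
Sox10: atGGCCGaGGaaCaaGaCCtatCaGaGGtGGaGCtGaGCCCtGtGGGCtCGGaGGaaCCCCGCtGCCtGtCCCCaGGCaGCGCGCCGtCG
Myrf: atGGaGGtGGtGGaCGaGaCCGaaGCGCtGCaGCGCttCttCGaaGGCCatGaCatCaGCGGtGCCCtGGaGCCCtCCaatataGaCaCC
Ermn: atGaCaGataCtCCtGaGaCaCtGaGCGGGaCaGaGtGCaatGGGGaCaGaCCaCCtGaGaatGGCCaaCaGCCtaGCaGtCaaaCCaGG
The GC content of the stretch was 67.8% for Sox10, 60.0% for Myrf and 54.4% for Ermn. Over the whole coding sequence it was 63.3%, 59.5% and 45.7%, and over the whole transcript 61.8%, 57.6% and 38.0%, in the same order.

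All 31 genes were detected in every library, with at least 44 counts, and all passed the filter on low counts in each comparison. Levels of different genes were compared as CPM (counts per 1e6 counts of the library, scaled by TMM) per kilobase of exon. In the EYFP homogenate Mbp, the myelin basic protein gene, was the highest at 739 CPM per kb, followed by Trf (transferrin, made by mature oligodendrocytes) at 608 and Cnp (a phosphodiesterase of myelin) at 262. Mobp at 194, Mog at 179, the regulator Olig1 at 166 and Mag at 143 came next. The differentiation markers Bcas1, Gpr17 and Enpp6 stood at 26.7, 4.30 and 2.56, and the precursor markers Pdgfra, Cspg4 and Vcan closed the order at 1.11, 0.773 and 0.0907. Bcas1 was above several mature genes, among them Ermn at 22.1 and Aspa at 8.06, and the sheath gene Anln was below Gpr17 at 3.56. Mature and differentiation genes were thus not cleanly ordered. The same 3 genes led and the same 3 closed the order in all 4 groups. The homogenate thus held transcripts of the markers of every stage, with those of mature cells above those of precursors. Levels in bulk RNA do not show which cells held them. Mobp and Mog, next to each other in the order of levels, kept close levels, and their order turned in tau IP, at 118 for Mobp and 120 for Mog.

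The labels do not say how strand was used in counting, and the named library kits do not mark strand. The exons of 11 members overlap another gene. Trf shares 2108 bases with Gm20425 on its own strand. Cnp, Ermn, Gpr17 and Nkx6-2 overlap the coding genes Dnajc7 (154 bases), Galnt5 (237), Lims2 (188) and Inpp5a (246) on the opposite strand. How reads of shared bases were counted is not stated, so they may have raised or lowered the counts of these members.

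**Figure D1:**
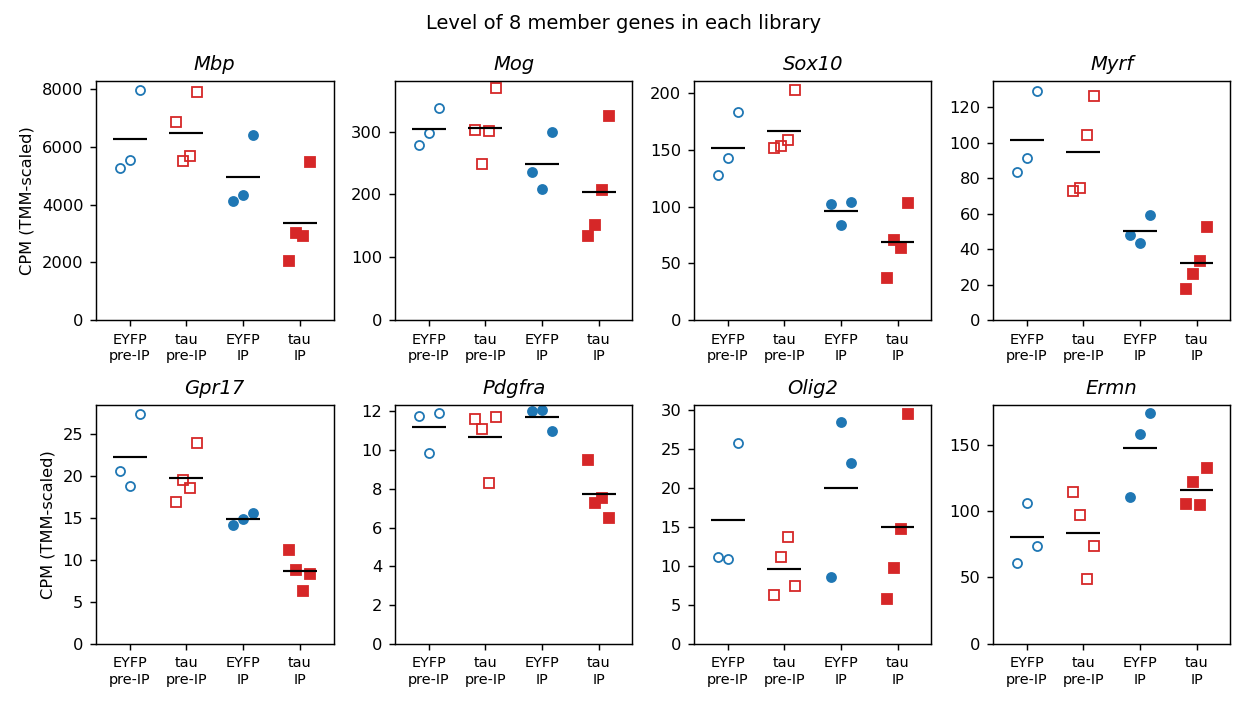
Level of 8 member genes (CPM, TMM-scaled, linear axes from 0) in each library, with EYFP animals as blue circles, tau animals as red squares, pre-IP open, IP filled and the group mean as a line. Every IP library lies below every pre-IP library for Sox10, Myrf and Gpr17, while Ermn lies higher in IP and Olig2 spreads widely.

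The IP was compared with the homogenate over all 14 libraries, to see how much oligodendrocyte RNA the ribosome pull-down held. Of the 31 members 10 were lower in IP and 3 were higher at an edgeR adjusted p under 0.05. Lower were the precursor gene Cspg4, the differentiation genes Gpr17 and Bcas1, the regulators Sox10, Olig1 and Myrf, the myelin genes Mbp and Mobp, the lipid enzyme Fa2h and the receptor Gpr37. Higher were Vcan, Cldn11 and Ermn. Of all 19472 genes tested 29.9% passed, 14.2% lower and 15.6% higher, so that 10 of 31 lower is a larger share than that background and 3 of 31 higher a smaller one. The median log2 change over the members was -0.44 (range -1.31 to 0.65), against -0.004 over all genes. Both fractions came from the same animals, so a change between them is one of share in a library, and its cause was not tested. Between animals, fewer oligodendrocytes and less RNA per cell cannot be told apart in bulk RNA.

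Among the regulators, Myrf (ENSMUSG00000036098.15, chr19:10208272-10240748), the membrane-bound factor that drives myelin genes, had the smallest p of all members. Its CPM in pre-IP was 83.5, 91.4 and 129 in EYFP animals H, I and K and 73.0, 74.6, 104.5 and 126 in tau animals B, C, L and M. In IP it was 47.7, 43.6 and 59.1, then 17.8, 25.7, 33.3 and 52.6, in the same order of animals, which is kept from here on. No IP library reached the lowest homogenate. The log2 change was -1.31 ± 0.22 (SE, as for all fitted changes), adjusted p = 0.000399.

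Sox10 (ENSMUSG00000033006.10, chr15:79154908-79165240), the SOX factor needed at all stages of the lineage, stood at 128, 143 and 183 CPM in EYFP pre-IP and at 152, 154, 158 and 202 in tau pre-IP. The IP values were 102, 83.7 and 104, then 37.5, 70.5, 63.6 and 103. Again the fractions did not overlap, and the log2 change was -1.004 ± 0.19, adjusted p = 0.000982. Olig1, a basic helix-loop-helix factor like Olig2, fell by 0.72 ± 0.22 (adjusted p = 0.0243), and Nkx6-2, a homeobox regulator of myelin genes, had a change of -0.22 ± 0.19 (adjusted p = 0.413).

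Olig2 (ENSMUSG00000039830.9, chr16:91225457-91228677), which specifies the lineage, behaved otherwise. Its CPM was 11.2, 10.8 and 25.7 in EYFP pre-IP and 6.30, 11.1, 13.6 and 7.45 in tau pre-IP. IP libraries held 8.50, 28.5 and 23.1, then 5.76, 9.74, 14.7 and 29.4. Animals I and M were far higher in IP than in their own homogenate, the other animals were near it, and the log2 change of 0.51 ± 0.34 did not pass (adjusted p = 0.293).

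Of the differentiation genes, Gpr17, a receptor that is present only for a time on cells leaving the precursor stage, stood at 20.7, 18.8 and 27.5 CPM in EYFP pre-IP and 16.9, 19.5, 18.6 and 23.9 in tau pre-IP. Its IP levels were 14.2, 14.8 and 15.6, then 11.2, 8.80, 6.30 and 8.31. The fractions did not overlap, and the log2 change was -0.92 ± 0.16 (adjusted p = 0.000495). Gpr17, Sox10 and Myrf were the 3 members with every IP library below every homogenate, a pattern held by 5.27% of all genes tested. Bcas1, a protein of newly myelinating cells, fell by 0.49 ± 0.16 (adjusted p = 0.0304).

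Enpp6, a choline phosphodiesterase of newly formed oligodendrocytes, did not follow. Its CPM was 13.4, 14.99 and 20.9 in EYFP pre-IP and 20.9, 12.1, 12.2 and 19.2 in tau pre-IP. In the IP libraries it stood at 17.5, 17.4 and 22.4, then 20.3, 10.6, 19.2 and 20.6. The ranges overlapped throughout, with a log2 change of 0.18 ± 0.18 (adjusted p = 0.495).

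The precursor genes went 3 ways. Cspg4, the NG2 proteoglycan, was at 10.2, 7.001 and 10.5 CPM in EYFP pre-IP and 7.45, 7.18, 10.8 and 11.7 in tau pre-IP. Its level in IP was 10.2, 5.99 and 7.37, then 4.198, 4.15, 5.60 and 5.13. The log2 change was -0.64 ± 0.19 (adjusted p = 0.0184), and the tau IP libraries were all below the lowest of every other group.

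Pdgfra, the receptor for platelet-derived growth factor, was at 11.7, 9.87 and 11.9 CPM in EYFP pre-IP and 11.6, 11.1, 8.31 and 11.7 in tau pre-IP. The IP gave 12.04, 12.06 and 10.96, then 9.50, 7.29, 7.54 and 6.49. EYFP IP stayed within the range of the homogenates or just above it, and the log2 change of -0.23 ± 0.14 did not pass (adjusted p = 0.225).

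Vcan, a large matrix proteoglycan, is the longest member and the lowest. Its CPM was 1.05, 1.30 and 1.58 in EYFP pre-IP and 0.906, 1.26, 1.17 and 0.837 in tau pre-IP. In IP the values were 2.31, 2.598 and 1.73, then 1.42, 1.58, 1.61 and 1.17. It was higher in IP in all 7 animals, with a log2 change of 0.60 ± 0.21 (adjusted p = 0.0415). That call held in 4 of 17 other settings of the fit, and not with the animal as a block (adjusted p = 0.0781).

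Among the genes of the myelin sheath, 2 of 12 were lower in IP and 2 were higher. These shares are close to the 14.2% lower and 15.6% higher of all genes tested. The median log2 change of the sheath genes was -0.37. Mbp, the most abundant member, was at 5251, 5552 and 7984 CPM in EYFP pre-IP and 6861, 5494, 5678 and 7893 in tau pre-IP. In IP it was 4120, 4328 and 6418, then 2057, 3026, 2897 and 5488. It was lower in IP in every animal, and the log2 change was -0.68 ± 0.20 (adjusted p = 0.0178). Mobp, a basic protein of compact myelin, fell by 0.46 ± 0.16 (adjusted p = 0.0345).

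Mog, a glycoprotein of the outer face of the sheath, was at 279, 297 and 337 CPM in EYFP pre-IP and 303, 249, 301 and 369 in tau pre-IP. The IP values were 235, 209 and 299, then 134, 152, 207 and 324. All 7 animals were lower in IP, and the change of -0.46 ± 0.17 missed the threshold (adjusted p = 0.0548). With the animal as a block it passed, at -0.51 ± 0.13 (adjusted p = 0.011).

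Mag, which faces the axon, was at 426, 487 and 829 CPM in EYFP pre-IP and 559, 426, 572 and 859 in tau pre-IP. IP libraries held 534, 421 and 615, then 236, 289, 384 and 547. The ranges overlapped, and the log2 change was -0.48 ± 0.21 (adjusted p = 0.104). With the animal as a block it passed, at -0.49 ± 0.15 (adjusted p = 0.0325).

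Cnp was at 640, 850 and 1373 CPM in EYFP pre-IP and 1080, 1019, 967 and 1452 in tau pre-IP. Its IP levels were 901, 968 and 1143, then 659, 725, 697 and 952. All tau animals were lower in IP, while animals H and I were higher, and the log2 change over all animals was -0.29 ± 0.17 (adjusted p = 0.22).

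Opalin, a protein of the paranodal loops, was at 96.2, 132 and 104 CPM in EYFP pre-IP and 132, 102, 134 and 130 in tau pre-IP. In the IP libraries it stood at 103, 103 and 118, then 79.8, 106, 106 and 146. The fractions covered the same range, with a log2 change of -0.12 ± 0.13 (adjusted p = 0.524).

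Ermn (ENSMUSG00000026830.9, chr2:58045113-58052864), a cytoskeletal protein of the mature sheath, had the smallest p among the members higher in IP. Its CPM was 61.1, 106 and 73.9 in EYFP pre-IP and 114, 96.9, 48.7 and 73.4 in tau pre-IP. Its level in IP was 111, 158 and 174, then 105, 122, 105 and 132. It was higher in IP in 6 of 7 animals, B being the exception, and the log2 change was 0.65 ± 0.18 (adjusted p = 0.0121). Cldn11, the claudin of the myelin tight junctions, was also higher in all animals but B, by 0.37 ± 0.14 (adjusted p = 0.0486), a call that held in 7 of 17 other settings and not with the animal as a block (adjusted p = 0.0663).

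The remaining sheath genes did not pass. They were Mal (-0.45), Gjb1 (-0.44), Tspan2 (-0.22) and Anln (0.22), with adjusted p from 0.0513 to 0.258, though Mal and Gjb1 passed with the animal as a block (adjusted p = 0.0276 and 0.0273). Of the 8 other genes of the mature cell, Fa2h, which hydroxylates the fatty acids of myelin lipids, fell by 0.93 ± 0.20 (adjusted p = 0.00294). Gpr37, a receptor of mature oligodendrocytes, fell by 0.79 ± 0.20 (adjusted p = 0.00775). The other genes had changes of -0.49 for Hapln2 (a link protein of the nodes), -0.48 for Trf, 0.04 for Ugt8a (which makes galactosylceramide), 0.18 for Ppp1r14a (a phosphatase inhibitor), 0.33 for Enpp2 (autotaxin) and 0.46 for Aspa (which splits N-acetylaspartate), and none passed. With the animal as a block Hapln2 (adjusted p = 0.011), Trf (0.0147) and Aspa (0.0298) did.

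**Figure D2:**
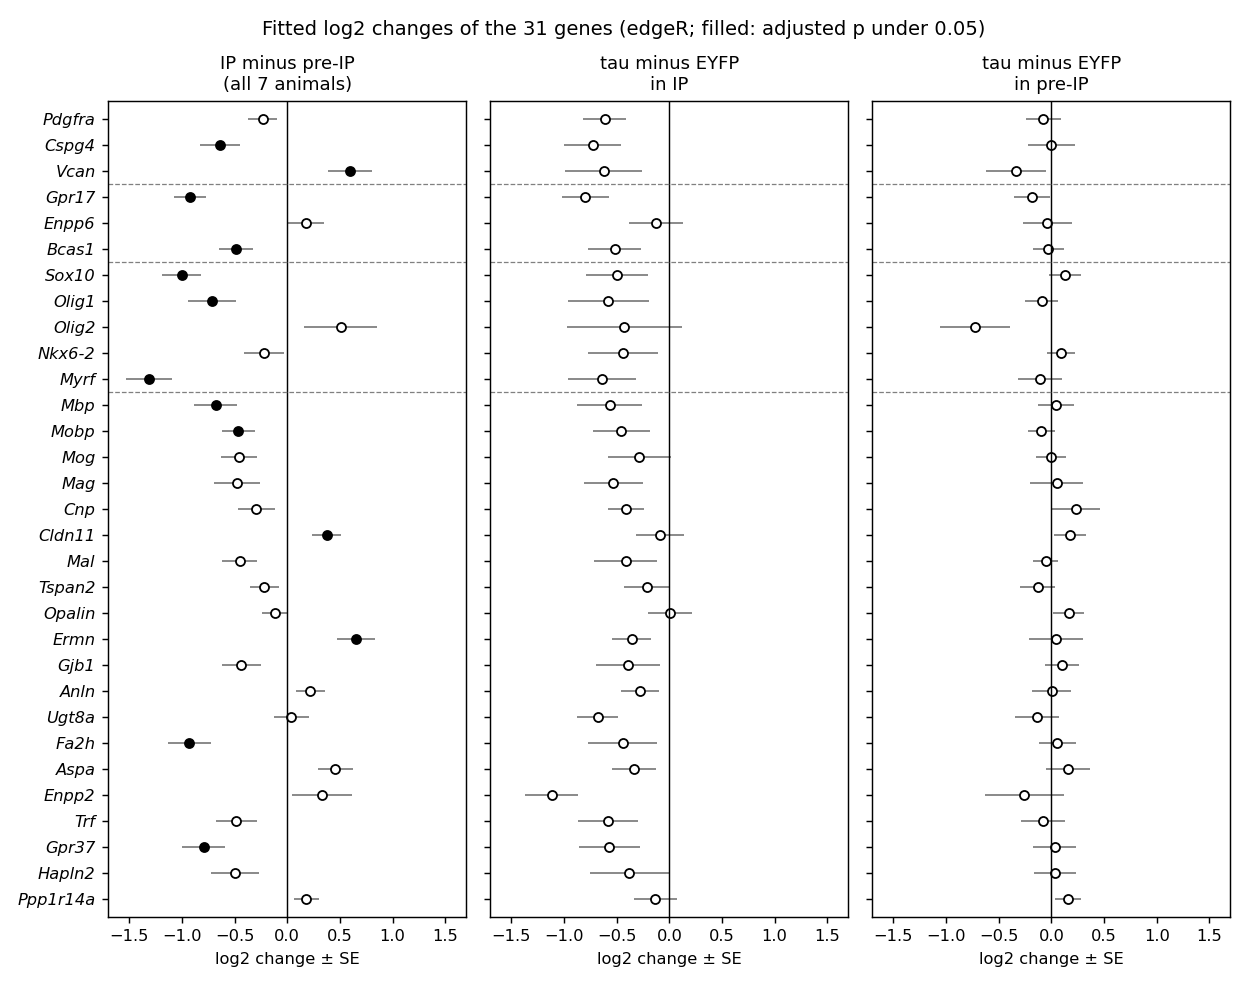
Fitted log2 changes (edgeR) with their standard errors for the 31 genes in stage order (dashed lines divide precursor, differentiating, regulator and myelin genes), for IP minus pre-IP, tau minus EYFP in IP and tau minus EYFP in pre-IP. Filled points have an adjusted p under 0.05, and they are in the left panel, 10 below 0 and 3 above.

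Since both fractions come from the same animals, the fit was repeated with the animal as a block. It called 16 members lower and 2 higher, against 14.9% and 13.4% of all genes in that fit. Aspa was then higher and Gjb1, Hapln2, Mag, Mal, Mog and Trf lower, while Vcan and Cldn11 no longer passed, and 11 of the 13 calls were shared. Fits on each treatment alone gave 9 members lower and 0 higher in tau animals, where 10.3% of genes were lower and 10.4% higher, and 1 lower (Myrf) and 1 higher (Ermn) in EYFP animals, where 2.41% were lower and 3.96% higher. Without animal K 11 members were lower and 0 higher, and without animal M 13 were lower and 1 higher. The counts were 6 and 1 without C, 5 and 1 without L, and 10 and 1 without H or I. The shares of all genes called in these fits are not given, so these counts cannot be set against a background. Myrf was called in each of the 17 other settings, and Sox10, Gpr17, Fa2h and Gpr37 in 16 of them.

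The change in IP differed from gene to gene with base composition. Over the 31 members the log2 change in IP had a Pearson r of -0.54 (Spearman rho -0.53) with the GC content of the longest transcript, and -0.32 (rho -0.35) over 19027 genes of the whole table. These are descriptions over genes of the same libraries, and genes are not independent replicates. The 10 members lower in IP had a median GC content of 54.3%, the 3 higher members 43.7% and the 18 others 49.5%. Exon length had an r of 0.00 among the members. With GC offsets, which remove the trend in each library, 9 members were lower and 2 higher, against 12.4% and 14.4% of all genes in that fit. Cspg4, Bcas1, Mobp, Ermn and Vcan no longer passed, while Tspan2 and Ugt8a were then lower and Ppp1r14a higher. The members' median moved from -0.44 to -0.28 and the change of Ermn from 0.65 to 0.12. The GC content of all reads was 51.56 to 52.33% in the IP libraries and 52.08 to 52.74% in the homogenates, and its part in the changes was otherwise not tested.

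**Figure D3:**
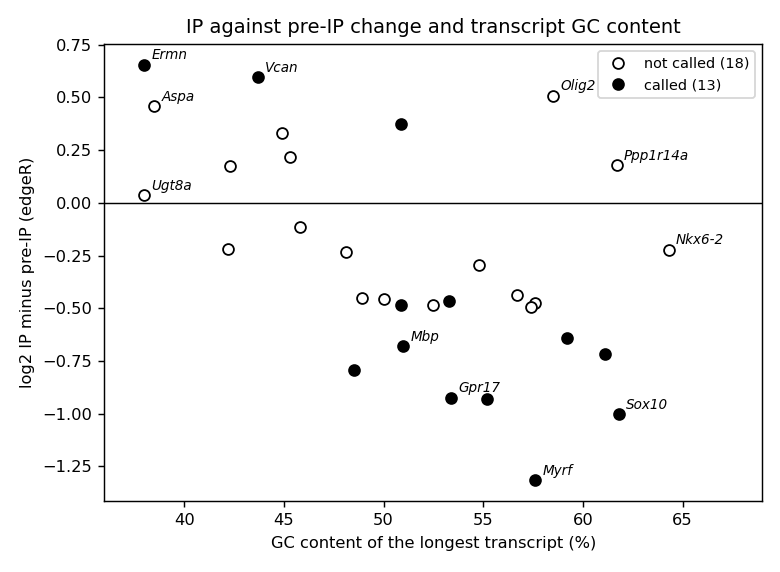
Log2 change of IP against pre-IP (edgeR) against the GC content of the longest transcript for the 31 members, filled where called. Ermn, Vcan and Aspa lie at low GC content and above 0, Sox10 and Myrf at high GC content and below 0, and Olig2 and Ppp1r14a lie above 0 at 58.5% and 61.7% GC.

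Other genes of the lineage were read from lists of 12 precursor, 10 differentiation and 40 myelin genes, all tested. In IP against pre-IP 3 precursor genes were lower and 1 higher, 5 differentiation genes were lower and 1 higher, and 16 myelin genes were lower and 2 higher, against the 14.2% and 15.6% of all genes. The smallest p among them belonged to the kinase gene Aatk (log2 change -1.21 ± 0.14, adjusted p = 3.76e-05), the ephrin gene Efnb3 (-0.91 ± 0.15, adjusted p = 0.00053) and Kndc1 (-0.95 ± 0.15, adjusted p = 0.00029) of the lower genes. Of the higher genes it belonged to the phosphatase receptor Ptprz1 (0.63 ± 0.15, adjusted p = 0.00487), Qdpr (0.36 ± 0.10, adjusted p = 0.0114), an enzyme that regenerates tetrahydrobiopterin, and Dbndd2 (0.36 ± 0.11, adjusted p = 0.0176). The median log2 change of the myelin list was -0.27, and that of the differentiation list -0.49. Of 10 markers each, 3 of microglia, 2 of astrocytes and 2 of other neurons were lower in IP, and 0, 1 and 0 were higher. Of 10 mural cell, 10 fibroblast and 10 choroid plexus markers 2, 2 and 0 were lower, and 1, 2 and 1 higher. Among 9 Schwann cell markers 3 were lower and 0 higher. The background for these short lists is the same 14.2% lower and 15.6% higher.

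The ratio of IP over pre-IP was then taken within each animal. The median over the 31 members was 0.02, -0.22 and -0.14 on the log2 scale in EYFP animals H, I and K, and -0.92, -0.58, -0.53 and -0.21 in tau animals B, C, L and M. The EYFP mean was -0.11 ± 0.12 (SD, n = 3) and the tau mean -0.56 ± 0.29 (SD, n = 4), and animal M lay within the EYFP range. In animal B 30 of 31 members were below 0, in animal H 14 were. Among the tau animals the noradrenergic median given above fell in the order B, C, L, M, the reverse of the members' order, and its part in the members' values was not tested. The medians of other lists moved too. For astrocyte markers they were 0.21, 0.15 and -0.02 in EYFP animals and -1.14, -0.32, -0.27 and -0.30 in tau animals, and for microglial markers 0.17, 0.20 and 0.07, then -0.97, -0.25, -0.29 and 0.08.

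By stage, the precursor median was 0.04, 0.29 and -0.12 in EYFP animals and -0.29, -0.60, -0.14 and -0.85 in tau animals. The differentiation median was -0.42, -0.12 and -0.14, then -0.59, -0.72, -0.72 and -0.38. The regulator median was -0.39, -0.50 and -0.35, then -1.60, -1.12, -0.94 and -0.24. The myelin median was 0.11, -0.23 and 0.00, then -1.02, -0.56, -0.47 and -0.18. Within an animal, regulators were below myelin genes in 7 of 7 animals, by 0.40 ± 0.18 (SD) on the log2 scale. The difference was -0.576 in animal B and only -0.065 in animal M. The regulators had a GC content of 57.6% (Myrf) to 64.3% (Nkx6-2), against a median of 51% over all members. These ratios carry no GC offset, and the part of GC content in this order was not tested. Differentiation genes were below precursor genes in 6 of 7 (mean difference -0.20 ± 0.35), and myelin genes stood above precursor genes in 4 and below in 3 (-0.10 ± 0.47). Precursor and myelin genes thus showed no constant order, and the stage lists of 3 genes each rest on the middle gene.

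**Figure D4:**
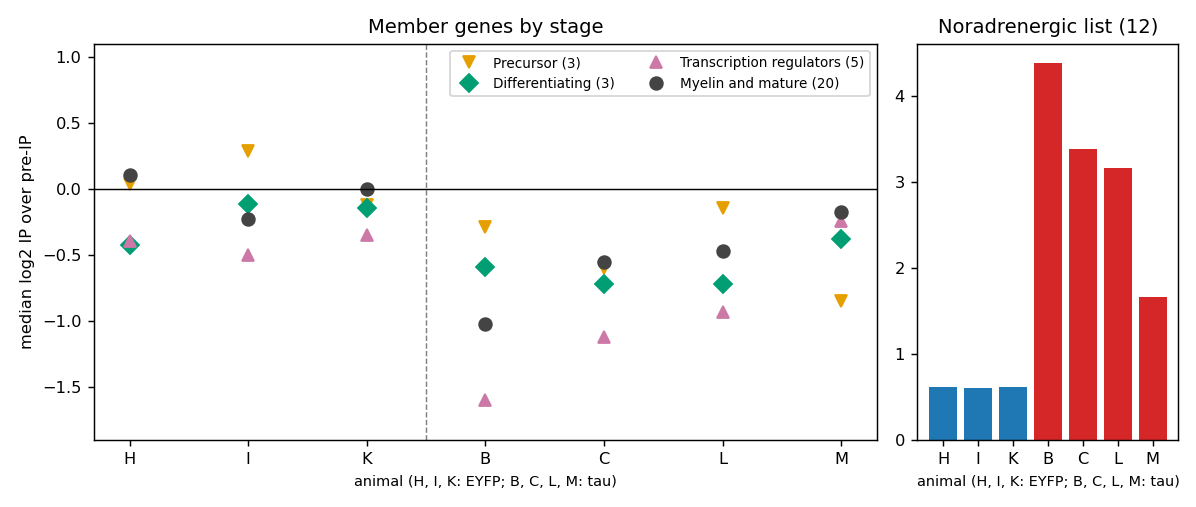
Left, median log2 IP over pre-IP of the member genes of each stage in each animal, with the number of genes in brackets. Right, the same median for 12 noradrenergic markers, near 0.6 in EYFP animals (blue) and between 1.66 and 4.38 in tau animals (red). The regulator median lies below the myelin median in every animal.

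**Figure D5:**
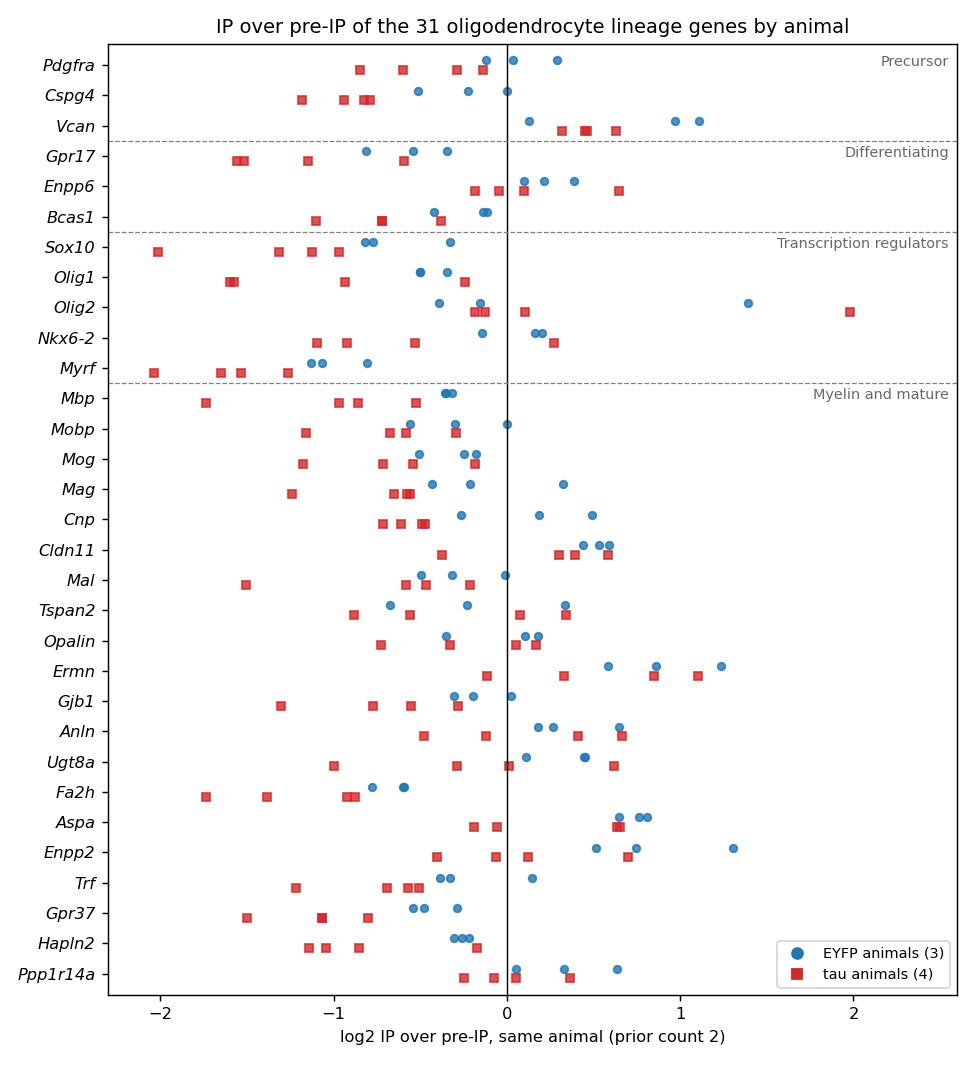
Log2 IP over pre-IP in each animal for the 31 members, EYFP animals as blue circles and tau animals as red squares. Sox10, Myrf, Gpr17, Mbp and Fa2h lie below 0 in all 7 animals, Vcan lies above 0 in all 7, and Olig2 spreads from -0.39 to 1.98.

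Tau and EYFP animals were compared within the IP, the contrast named in the design. At an edgeR adjusted p under 0.05, 0 of 31 members and 0% of the 19472 genes tested passed. At an unadjusted p under 0.05, 6 members were lower in tau (Pdgfra, Cspg4, Gpr17, Cnp, Ugt8a and Enpp2) and 0 were higher. Of all genes 791 (4.06%) were lower and 1545 higher at that threshold. Of the members 30 had a lower estimate in tau IP, Opalin at 0.01 being the exception, against 56.6% of all genes, and the median was -0.44 against -0.08. In 6 members (Pdgfra, Cspg4, Vcan, Gpr17, Ugt8a and Enpp2) every tau IP library was below every EYFP IP library, which 5.84% of all genes showed. All 10 astrocyte, all 10 microglial and all 10 choroid plexus markers had lower estimates as well, with medians of -0.53, -0.41 and -1.15. So did 9 of 10 fibroblast markers (median -0.70) and 9 of 10 markers of other neurons (-0.44), while the noradrenergic list had a median of 2.81, and the part of these differences in the members' values was not tested.

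The 3 precursor genes lay in this group of 6. Of 12 other precursor genes 11 had a lower estimate and 3 showed no overlap (median -0.57). The pattern was not particular to precursor genes. It was held by 3 of 10 astrocyte, 3 of 10 fibroblast and 2 of 10 other neuron markers. Of microglial, mural cell and choroid plexus markers 1 of 10 each held it. Pdgfra and Vcan are known in fibroblasts too, whose markers are given above. The log2 difference of Cspg4 was -0.73 ± 0.27 (adjusted p = 0.345), that of Vcan -0.62 ± 0.36 (adjusted p = 0.523) and that of Pdgfra -0.61 ± 0.20 (adjusted p = 0.319). The tau values given above (Pdgfra at 6.49 to 9.50 CPM) stood clear of the EYFP values (10.96 to 12.06). Gpr17 had a difference of -0.80 ± 0.22 (adjusted p = 0.318). The median was -0.62 over the 3 precursor genes, -0.52 over the differentiation genes, -0.50 over the regulators and -0.40 over the 20 myelin genes. The other lists had medians of -0.32 (10 differentiation genes, 10 lower) and -0.35 (40 myelin genes, 37 lower), and 0 of these genes passed.

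Enpp2 (ENSMUSG00000022425.16, chr15:54838901-54952892) had the smallest p of the members. It encodes the secreted lysophospholipase autotaxin, which choroid plexus makes as well as oligodendrocytes. Its CPM was 392, 558 and 623 in EYFP IP and 299.7, 321, 178 and 178 in tau IP, with no overlap. The log2 difference was -1.12 ± 0.25 (adjusted p = 0.318). In pre-IP Enpp2 was at 233, 226 and 435 in EYFP and 396, 335, 109.9 and 164 in tau animals, so the low values of L and M were in both fractions. The summed CPM of 10 choroid plexus markers was 1082, 1814 and 1640 in EYFP IP and 790, 1248, 122 and 49.8 in tau IP, and 834, 812 and 1418, then 1669, 1330, 143 and 45.6 in pre-IP. Animals L and M were thus low in choroid plexus markers too, and the part of this in the Enpp2 values was not tested. Ugt8a was at 68.2, 73.5 and 91.8 CPM in EYFP IP and 38.3, 44.6, 53.1 and 59.3 in tau IP, a log2 difference of -0.68 ± 0.20 (adjusted p = 0.318).

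These differences depended on the fit. The Wald test of DESeq2 called Enpp2 (adjusted p = 0.00899) and Ugt8a (adjusted p = 0.0393) as lower, as it did 0.442% of the 4749 genes to which it gave an adjusted p. With low-count genes kept, edgeR called Enpp2 as lower (adjusted p = 0.0288), and 0.0157% of the 31864 genes then tested. Without animal M, 0.67% of all genes passed, 0 of them members, and the members' median was -0.74. Without animal K the median was -0.33 and without B -0.30. By library number in the labels, the median difference was -0.67 among numbers up to 11 (2 tau and 2 EYFP IP libraries, 31 of 31 members negative) and -0.42 from 17 on (2 tau and 1 EYFP, 29 of 31).

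In the homogenate, the median tau minus EYFP difference over the members was 0.00, with 16 members above 0 and 15 below. By library number it was 0.06 up to 11 (12 of 31 members negative) and -0.21 from 17 on (24 of 31 negative). At an edgeR adjusted p under 0.05, 0 members and 0% of 19197 genes passed. At an unadjusted p under 0.05, 1 member was lower, as were 2.26% of all genes. It was Olig2, with a log2 difference of -0.72 ± 0.33 (adjusted p = 1) from the values given above, where animal K alone among the EYFP animals was high. The smallest p of a higher member belonged to Ppp1r14a, at 87.0, 107 and 103 CPM in EYFP and 108, 100.1, 112 and 122 in tau homogenates, a difference of 0.15 ± 0.12 (adjusted p = 1). Mbp differed by 0.04 ± 0.17, Myrf by -0.11 ± 0.21 and Gpr17 by -0.19 ± 0.17. A difference in whole brainstem of the size seen in the IP medians was not detected, though a miss of the threshold does not show that the groups were equal.

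The homogenates differed by library number. Of the members 9 of 31 (29%) did not overlap between numbers up to 11 and numbers from 17 on, against 20.9% of all genes. Cspg4, Sox10, Myrf, Mag, Gjb1, Fa2h, Gpr37 and Hapln2 were higher from 17 on, and Tspan2 was lower. Mag averaged 474 CPM up to 11 and 753 from 17 on. The labels do not say what the numbers stand for.

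The interaction of treatment and fraction asks whether the tau difference in IP differed from that in the homogenate. At an edgeR adjusted p under 0.05, 0 members and 0% of 20495 genes passed, and 1 member, Gpr17, had an unadjusted p under 0.05 (log2 difference of differences -0.60 ± 0.28, adjusted p = 0.82), where 1.94% of all genes were lower at that threshold. Of the members 30 were negative, against 54.6% of all genes, with a median of -0.49 against -0.05. Olig2 was the exception at 0.30 ± 0.71 (adjusted p = 0.964). The sign was not particular to the members. All 10 astrocyte, all 10 microglial and all 10 choroid plexus markers were negative too (medians -0.484, -0.575 and -0.613), as were 9 of 10 of other neurons (-0.464). Of 11 noradrenergic markers 10 were positive (median 2.68). The lower estimates of members in tau IP were therefore not shown to differ from the homogenate gene by gene.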

How the data were processed

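The 14 libraries were pre-IP and IP of 7 mouse brainstems. The authors deposited raw read counts, whole numbers per gene and library. The submitters' processing notes name FastQC, Trim Galore, STAR and featureCounts and the build GRCm38, without versions, roles or strand use. Per the labels' protocols, RNA was cleaned on columns and polyadenylated RNA was made into libraries with kits for low input. Per the file headers, a sample sheet lists a score of RNA integrity (RIN) and the percent of G and C in the reads, as deposited. Its header cells and those of the count table were matched by position, checked by the tau construct counts.

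Counts were tested in R 4.3.3 with edgeR 4.0.16 (quasi-likelihood F test), with filterByExpr, TMM scaling and Benjamini-Hochberg adjustment over all genes tested, at 0.05. Tau and EYFP were compared within each fraction, IP with pre-IP in a fit of all 14 that had treatment as a term, and the interaction over the same libraries. The standard error is the log2 change over the square root of F. Ratios within an animal used a prior count of 2. The fits were tested on simulated data. The labels tie the fractions by animal letter, and the deviations of an animal's libraries from their group means had correlations of 0.147 to 0.359. The labels name separate animals, and within a fraction the p-values of tau against EYFP measure the spread between them. The main IP against pre-IP and interaction fits took both libraries of an animal as independent. Their p-values thus mix the spread between and within animals, and the fit with the animal as a block accounts for the pairing. Other settings were DESeq2 1.42.0 (size factors, Wald test), limma 3.58.1 (voom with quality weights), no filter, each animal left out, library-number range as covariate, each treatment alone, the animal as a block, 1 fit of all libraries and, chosen after seeing the data, GC offsets. The members and all 17 gene lists were chosen with earlier results of these data known. By rule, all members were named, values per library were given for 12 of them and for the member with the smallest p in each direction of a comparison, and up to 3 other lineage genes per direction were named.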

Additional observations from a re-analysis of the deposited data

Results flagged for a closer look

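Among 93 groups of 4 values (member genes in tau animals, as CPM in each fraction and as log2 IP over pre-IP), 7 held an animal whose gap to the nearest other was a large share of the range (Dixon's test at 95%), where chance flags about 1 in 20 groups, or 4.65. Animal M was the odd one in 4 of them. Its Bcas1 level in tau IP was 88.8 CPM, its Sox10 level in tau pre-IP was 202 CPM, its Gpr37 level in tau pre-IP was 155 CPM, each the highest of the tau animals, and its log2 IP over pre-IP of Olig2 was 1.98. Animal C had the lowest Enpp6 level in tau IP, at 10.6 CPM, and the lowest Opalin level in tau pre-IP, at 102 CPM. Animal B had the lowest log2 IP over pre-IP of Mag, at -1.24. Their causes were not tested.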

How the results depend on the processing

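With the animal as a replicate block, 16 members were lower in IP than in pre-IP, as with the library-number range as covariate (16), against 10. EYFP animals alone gave 1 lower and 1 higher and tau animals alone 0 higher. Leaving out 1 animal gave 5 to 13 lower and 0 to 3 higher. The share of all genes called for IP against pre-IP is not given for the fits without an animal or with the range as covariate. For tau against EYFP in IP, the DESeq2 Wald test called 2 members and the fit without a filter 1, against 0. Of 527 member values for IP against pre-IP, 56 lost the call, 37 gained it and 15 changed sign. In 7 of these, of Enpp6 and Ugt8a, the value first given was within about its standard error of 0 and the call did not change. The other 8 were Pdgfra (0.072), Nkx6-2 (0.082) and Cnp (0.081) in EYFP animals alone, Enpp2 (-0.061) in tau animals alone, and, with GC offsets without and with the block, Ugt8a (-0.52 and -0.49) and Aspa (-0.077 and -0.047). For tau against EYFP in IP 8 of 434 values changed sign (Cldn11, Enpp6 and Opalin). The cause was not tested, beyond the fewer samples of the single-treatment fits. The block changed no call in the interaction. DESeq2 gave several members no adjusted p. Each member had at least 44 counts in every library.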
